A study of Mus musculus with 26 samples.

Results

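miR-128 is a miRNA of neurons that is made from a pair of hairpins, mir-128-1 and mir-128-2, encoded on different chromosomes. Its 2 entries were taken from the deposited small RNA table of the mouse hippocampus by name, as the miRNA rows called mmu-mir-128-1 and mmu-mir-128-2. They are 2 of 1054 miRNA entries and of 1360 entries in all. Both passed the filter on low counts, as did 463 of the 1054 miRNA entries. All mice were male C57BL/6J mice of 2 to 3 months with no transgene, and tissue of both hemispheres was used. Control mice stayed in the home cage, and swim mice were taken 45 min after the start of a swim of 6 min in water of 18 °C. The dorsal (dHC) and the ventral hippocampus (vHC) were sequenced apart, in 8 libraries of control vHC and 6 each of swim vHC, control dHC and swim dHC. The labels do not say whether dHC and vHC libraries came from the same mice, nor that each library of a group is a separate mouse, so p-values measure the spread between these libraries.

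A miRNA guides the Argonaute protein to mRNAs that pair with its seed, bases 2 to 8, and lowers their translation and stability. miR-128 is among the miRNAs enriched in brain, where it is known to restrain the excitability of neurons, and mice that lack it in neurons become hyperactive and develop seizures. Each hairpin sits within a gene. mir-128-1 lies in R3hdm1, which encodes a protein with an R3H domain, and mir-128-2 lies in Arpp21, which encodes a cAMP-regulated phosphoprotein of neurons.

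The mature sequences show what the hairpins share and where they differ. They come from RefSeq on GRCm38.p6 and matched 2 of 2 members by name. Capitals mark the seed, bases 2 to 8.
mmu-miR-128-3p: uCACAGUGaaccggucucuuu
mmu-miR-128-1-5p: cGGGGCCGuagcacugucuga
mmu-miR-128-2-5p: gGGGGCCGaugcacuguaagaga
The 3p arm, the strand that miR-128 is known for, is 21 bases long and the same from both hairpins. The 5p arms share their seed and are 21 and 23 bases long. Of 1679 mature mouse miRNAs, 1 holds the 3p seed at bases 2 to 8, miR-128-3p itself, and 2 hold the 5p seed there, the 5p arms shown.

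The hairpins are printed whole because they set which reads can be assigned to 1 entry. Capitals mark the longest run that they share.
mmu-mir-128-1: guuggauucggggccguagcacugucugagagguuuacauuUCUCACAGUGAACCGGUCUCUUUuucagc
mmu-mir-128-2: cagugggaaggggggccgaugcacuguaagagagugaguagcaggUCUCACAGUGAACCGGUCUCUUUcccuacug
The shared run is 23 bases long, 2 bases before the 3p arm and all 21 of it. A read of the 3p arm therefore matches both hairpins. Beyond its last base the hairpins part, with UU in mir-128-1 and CC in mir-128-2.

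The seed of miR-128-3p also lies within miR-27, shifted by a base. Capitals here mark the same 7 letters, at bases 3 to 9 of miR-27.
mmu-miR-27a-3p: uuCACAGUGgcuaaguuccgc
mmu-miR-27b-3p: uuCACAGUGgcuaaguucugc
These 7 letters occur anywhere in 10 of the 1679 mature miRNAs, or 0.596%. miR-27a is encoded at chr8:84208727-84208747 and miR-27b at chr13:63300760-63300780, both on the plus strand.

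In GENCODE M21 on GRCm38, mir-128-1 lies at chr1:128202361-128202430 on the plus strand, 70 bases long. Its host R3hdm1 runs from 128103301 to 128237736 on the same strand, and the hairpin falls in an intron of 14107 bases in 2 of 16 annotated transcripts. mir-128-2 lies at chr9:112118636-112118711 on the minus strand, 76 bases long. Its host Arpp21 runs from 112065091 to 112235938, also on the same strand, and the hairpin falls in an intron in 9 of 31 transcripts, of which 7 are coding. The intron around mir-128-2 is between 2415 and 51873 bases long, by transcript. Neither hairpin overlaps an annotated exon.

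The deposited values are expected counts per hairpin, with the 5p and 3p arms together, so the arms cannot be told apart. Total miRNA counts were between 465387 (control dHC library 24) and 4819724 (swim dHC library 28). The next shallowest library had 1357739. The authors collapsed reads that were alike in sequence and molecular tag, so the count of a sequence cannot exceed the number of different tags. The length of the tag is not given in the sources used here, and the part of such a limit in the levels of abundant miRNAs, among them mir-128, and in their relation to depth was not tested. All groups are spread over 3 blocks, which the labels give as dates. The study's methods name 3 batches of library preparation, and no source used here says whether these are the dated blocks. The defining miRNAs of neurons were present (7 of 7), at between 170327 and 246810 CPM in sum (counts-per-million of the miRNA total, here without further scaling).

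miR-128 was among the most abundant miRNAs of the hippocampus. With the entries of each miRNA summed, it stood 4th of 401 by mean count, with 106178 counts a library. It held 4.30% ± 0.627 (SD, n = 26) of all miRNA counts, from 3.00% to 5.64%. Just above it stood mir-26a, a miRNA of many tissues (5.64% ± 0.761), and mir-124, the best known neuronal miRNA (4.27% ± 0.844). Just below it stood mir-125b (3.58% ± 0.705) and let-7a (3.36% ± 0.519), both linked to differentiation. The shares of mir-128 and mir-124 differed by less than either SD, and their order by mean share was the reverse of that by mean count. As single entries, mir-128-1 and mir-128-2 stood 8th and 10th of 1054.

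By group, the summed share was highest in vHC. In control vHC it had a lowest value of 4.08%, a median of 4.65% and a highest of 5.64%. In swim vHC these were 4.04%, 4.49% and 4.96%. In control dHC they were 3.45%, 3.90% and 4.60%, and in swim dHC 3.00%, 3.77% and 4.58%. All 4 groups overlapped.

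The levels of the single entries were compared as CPM scaled by the TMM method of edgeR, which corrects for the makeup of each library. The level of mir-128-1 in control vHC was 27024 CPM ± 4192 (SD, n = 8), from 21630 over a median of 25709 to 32621. In swim vHC it was 25293 CPM ± 2928 (SD, n = 6), from 22507 over 24124 to 29254. The swim values lay within the range of the controls. In control dHC it was 22445 CPM ± 5897 (SD, n = 6), from 17996 over 20008 to 33068, and in swim dHC 20705 CPM ± 3360 (SD, n = 6), from 17675 over 19966 to 26662. The highest of all 26 values belonged to control dHC library 24, the shallowest, after scaling by a TMM factor of 0.749. Its unscaled share of mir-128-1 was 2.48% of the miRNA counts, below the 3.15% of control vHC library 17.

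**Figure D1:**
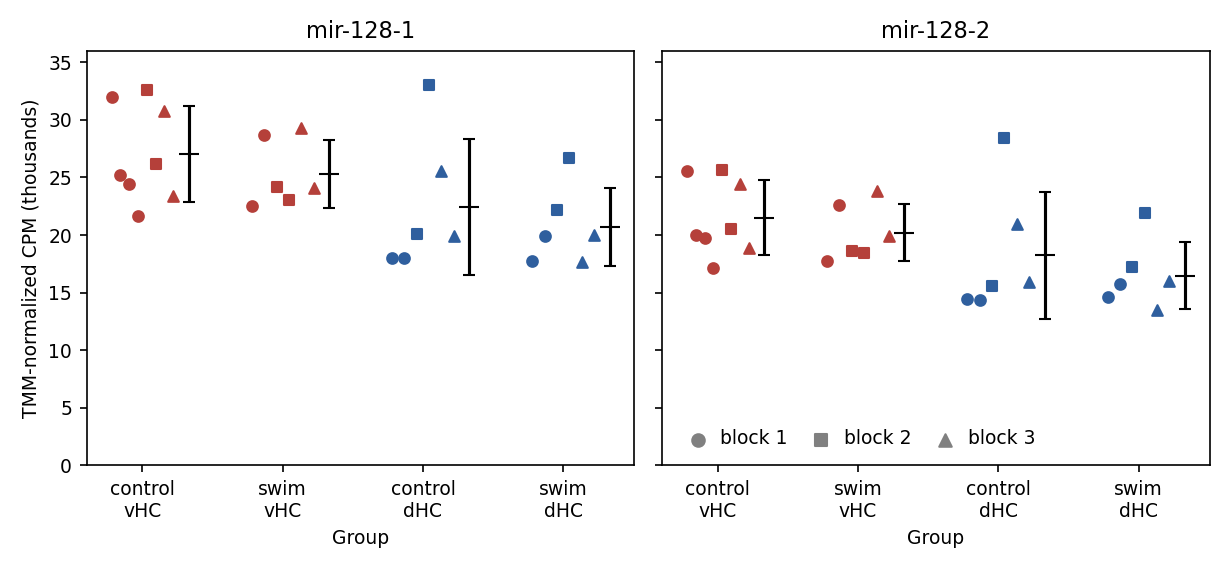
Level of mir-128-1 and mir-128-2 in each of the 26 libraries, as TMM-normalized CPM, by group. Each point is a library and its shape gives the block, red is vHC and blue is dHC, and the bars give the mean ± SD. All groups overlap, and the single high square in control dHC, at 33068 CPM for mir-128-1, is library 24 (TMM factor 0.749).

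For mir-128-2 the order of the groups was the same. It had 21511 CPM ± 3258 (SD, n = 8) in control vHC, from 17169 over 20279 to 25671. In swim vHC it had 20192 CPM ± 2483 (SD, n = 6), from 17748 over 19269 to 23857. In control dHC it had 18255 CPM ± 5522 (SD, n = 6), from 14372 over 15723 to 28382, and in swim dHC 16476 CPM ± 2930 (SD, n = 6), from 13493 over 15847 to 21878. Library 24 again had the highest value after scaling, while its unscaled share was 2.13%, against 2.48% in control vHC library 17.

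The study asked whether miRNAs change soon after stress, when many mRNAs fall. No change of mir-128 with stress was detected, in either region. As in the study, stress was tested by dropping its coefficient and its interaction with region at once. The model held region and 2 surrogate variables, which the study describes as vectors of technical variation. Here region explained 91.1% of the variance of 1 of them, and block explained 72.7% of the other. After Benjamini-Hochberg adjustment over all entries, edgeR's quasi-likelihood p was 0.884 for mir-128-1 and 0.883 for mir-128-2. Of all 463 entries 0 were called (0%) at an adjusted p under 0.05, and 16 had an unadjusted p under 0.05. DESeq2 and limma voom also called 0, with 16 and 31 at an unadjusted p under 0.05, and they called 0 in the tests of each region and of the interaction.

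In vHC the log2 difference of swim against control was -0.04 (SE 0.08) for mir-128-1 and -0.03 (SE 0.08) for mir-128-2, with adjusted p of 0.877 and 0.920 in edgeR. The 95% interval for mir-128-1 ran from 0.875-fold to 1.09-fold, and that for mir-128-2 from 0.870-fold to 1.10-fold. In dHC the log2 difference was -0.07 (SE 0.08) and -0.09 (SE 0.09), with adjusted p of 0.989 and 0.982 in edgeR. Here the intervals ran from 0.849-fold to 1.07-fold and from 0.827-fold to 1.07-fold. These intervals belong to the model of 2 surrogate variables. A model that held block and no surrogate variables gave larger SE. Its vHC differences were -0.12 (SE 0.13) for mir-128-1 and -0.11 (SE 0.14) for mir-128-2. In dHC they were -0.11 (SE 0.13) and -0.14 (SE 0.14). Adding the total miRNA count gave smaller SE, 0.06 and 0.05 in vHC and 0.06 for both in dHC. The stress changes that lie outside the intervals thus depend on the covariates. The smallest change that these libraries could detect was not tested. In the first of these models 0 of 463 entries were called in either region, with 34 (vHC) and 17 (dHC) at an unadjusted p under 0.05.

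The stress difference was not distinguishable between the regions either. The interaction was -0.03 (SE 0.11) for mir-128-1 and -0.06 (SE 0.12) for mir-128-2, with adjusted p of 0.959 and 0.954 in edgeR. For this term too 0 of 463 entries were called, with 23 at an unadjusted p under 0.05. Within blocks, the vHC difference of log2 CPM for mir-128-1 was -0.0076, -0.31 and -0.01 in blocks 1, 2 and 3, and the dHC difference 0.06, -0.08 and -0.26. The sign of the small vHC difference turned under other scalings, among them TMMwsp (0.0126 for mir-128-1 and 0.0202 for mir-128-2).

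**Figure D2:**
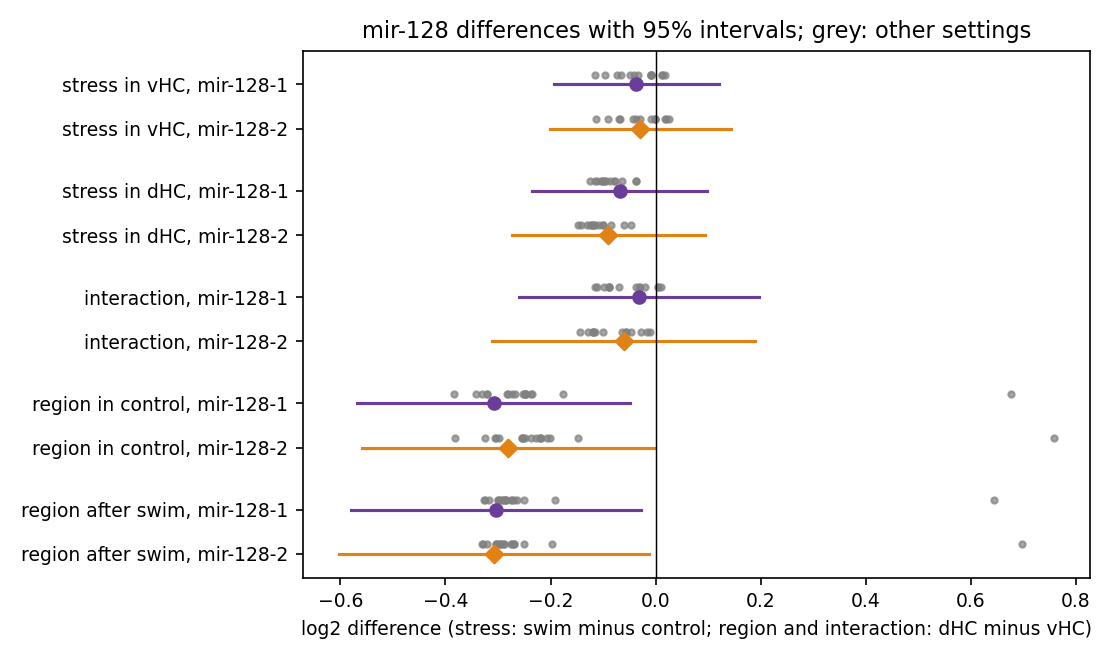
Log2 differences of mir-128-1 (circles) and mir-128-2 (diamonds) for stress in each region, their interaction and the region difference in each condition, with 95% intervals as lines and the values under other settings as grey points. The stress intervals span 0, the region values lie near -0.3, and the grey points beyond 0.6 are the region differences with 2 surrogate variables in place of block.

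Between the regions, mir-128 was lower on average in dHC, but neither entry passed the threshold over all entries. In control mice the log2 difference of dHC against vHC was -0.31 (SE 0.13, 0.808-fold) for mir-128-1 and -0.28 (SE 0.14, 0.823-fold) for mir-128-2, with adjusted p of 0.0781 and 0.134 in edgeR. After swim it was -0.30 (SE 0.13) and -0.31 (SE 0.14), with adjusted p of 0.117 and 0.139 in edgeR. These fits held region, stress, their interaction and block. In control mice 104 of 463 entries were called (22.5%), 14.7% lower and 7.78% higher in dHC. After swim 94 were called (20.3%), 12.7% lower and 7.56% higher. In bulk tissue, fewer cells of a type and less RNA per cell cannot be told apart.

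The region call depended on the library depth and on the covariates. Without control dHC library 24 the control differences were -0.40 for both entries, with adjusted p of 0.0409 and 0.0494 in edgeR. When block was joined by the log2 of the total miRNA count, they were -0.34 (SE 0.08) and -0.33 (SE 0.08), with adjusted p of 0.00323 and 0.00341, and after swim -0.27 and -0.28, with adjusted p of 0.0274 and 0.0208 in edgeR. With that term and without library 24 they were -0.27 and -0.25 in control mice, with adjusted p of 0.104 and 0.107 in edgeR, and -0.25 for both after swim, with adjusted p of 0.104 and 0.0912, so that no call was left in either condition. With block alone and only libraries of 1500000 to 3300000 counts (8 and 6 of vHC, 4 and 4 of dHC) they were -0.38 for both in control mice, with an adjusted p of 0.0606 each, and -0.32 for both after swim, with adjusted p of 0.142 and 0.133 in edgeR. With 2 surrogate variables in place of block the sign turned, to 0.68 (SE 0.22) and 0.76 (SE 0.24) in control mice, both with an adjusted p of 0.0343 in edgeR. Region explained 91.1% of the variance of 1 of these variables. When region was left out of the null model from which they are estimated, the control differences were -0.24 and -0.21. Without TMM scaling both entries were called lower in dHC in both conditions (-0.32 and -0.30 in control mice, -0.26 and -0.27 after swim). With the counts of the 2 entries summed and block in the model, the difference was -0.25 in control mice and -0.27 after swim. The adjusted p over 401 miRNAs was 0.182 and 0.187 in edgeR, so neither was called. With the total miRNA count added the summed values were -0.29 and -0.25, with adjusted p of 0.0196 and 0.0642 in edgeR. Only the control value was then called.

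Within blocks the region difference varied as well. For mir-128-1 the difference of log2 CPM in control mice was -0.50, -0.18 and -0.25 in blocks 1, 2 and 3, and after swim -0.43, 0.04 and -0.50. For mir-128-2 it was -0.51, -0.13 and -0.24 in control mice and -0.40, 0.07 and -0.57 after swim. Every library of dHC lay below every library of vHC in block 1, in both conditions, and in block 3 after swim.

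Marker miRNAs of some other cell types also differed between the regions. The summed oligodendrocyte miRNAs (mir-219a and mir-338) were at between 3371 and 5014 CPM in control vHC and between 4611 and 7385 in control dHC, and 3 of their 3 tested entries were called higher in dHC in each condition, by edgeR. Of 6 choroid plexus miRNAs, 3 were called higher and 3 lower in control dHC, where their summed level was between 1962 and 5534 CPM, against between 2052 and 2884 in control vHC. After swim 1 of them was called higher and 3 lower. Of 4 entries of microglia and other immune cells and 1 of endothelium, 0 were called in either condition. Of 3 erythroid entries 1 was called lower in dHC in each condition. The summed neuronal miRNAs were at between 176100 and 203436 CPM in control vHC and between 170327 and 227593 in control dHC. No defining marker was at 0. The part of these cell types in the mir-128 difference was not tested.

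Of 15 other miRNAs known in neurons, in 23 tested entries, 0 were called with stress in any fit. In control mice 1 of the 23 was called, against 22.5% of all entries, and it was lower in dHC: mir-127, an imprinted miRNA (-0.46, SE 0.10, adjusted p 0.000677 in edgeR). After swim 3 of the 23 were called, against 20.3% of all entries. mir-127 was lower again (-0.36, adjusted p 0.0121), and both entries of mir-129, a miRNA linked to synaptic plasticity, were higher (0.46 each, adjusted p 0.0286 and 0.0314 in edgeR). The median region difference of the list was 0.08 in both conditions, against 0.0055 and -0.00015 over all entries.

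The miR-27 entries, which share the 7 letters, did not pass the threshold for stress. In vHC their log2 differences were 0.16 (mir-27a) and 0.15 (mir-27b), both with an adjusted p of 0.655 in edgeR, and in dHC -0.10 and -0.09, both with 0.982. In control mice mir-27b was higher in dHC (0.25, SE 0.09, adjusted p 0.0450 in edgeR), and mir-27a had a value of 0.23 with an adjusted p of 0.0712. After swim the values were 0.05 and -0.01.

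Neither mir-128 entry passed the threshold for block, which called 246 of 463 entries (53.1%). For mir-128-1 the log2 difference from block 1 was 0.25 (SE 0.11) in block 2 and 0.11 (SE 0.11) in block 3, with an adjusted p of 0.151 over the 3 blocks in edgeR. For mir-128-2 it was 0.25 (SE 0.12) and 0.12 (SE 0.12), with an adjusted p of 0.181. Without control vHC library 1 the adjusted p for mir-128-1 was 0.0405.

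The TMM-scaled level of mir-128 fell as library depth rose. Over the 26 libraries, log2 CPM and log10 total miRNA count had a Pearson r of -0.635 (permutation p = 0.00015, adjusted 0.0002) and a Spearman rho of -0.636 (permutation p = 0.00065) for mir-128-1. For mir-128-2 r was -0.712 (permutation p = 2e-05, adjusted 8e-05) and rho -0.709 (permutation p = 0.0001). The total is also the denominator of the level, so the measures are not independent. Without the 2 libraries farthest from the median depth, control dHC 24 and swim dHC 22, r was -0.591 and -0.661. Without TMM scaling r was -0.297 (permutation p = 0.14) for mir-128-1 and -0.437 (permutation p = 0.0245) for mir-128-2.

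Within regions and blocks the relation was less even. For mir-128-1, r was -0.637 within vHC (n = 14, permutation p = 0.0173) and -0.835 within dHC (n = 12, permutation p = 0.00249), while rho was -0.525 (permutation p = 0.0576) and -0.531 (permutation p = 0.08). For mir-128-2, r was -0.715 and -0.885, and rho was -0.626 (permutation p = 0.019) and -0.734 (permutation p = 0.00847). By block, r for mir-128-1 was -0.337 in block 1 (n = 10, permutation p = 0.337), -0.809 in block 2 (n = 8, exact permutation p = 0.00724) and -0.850 in block 3 (n = 8, exact permutation p = 0.0059). For mir-128-2 the 3 values were -0.388, -0.877 and -0.894. The relation was therefore not detectable in block 1 alone, whose totals ran from 1649163 to 3224897.

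**Figure D3:**
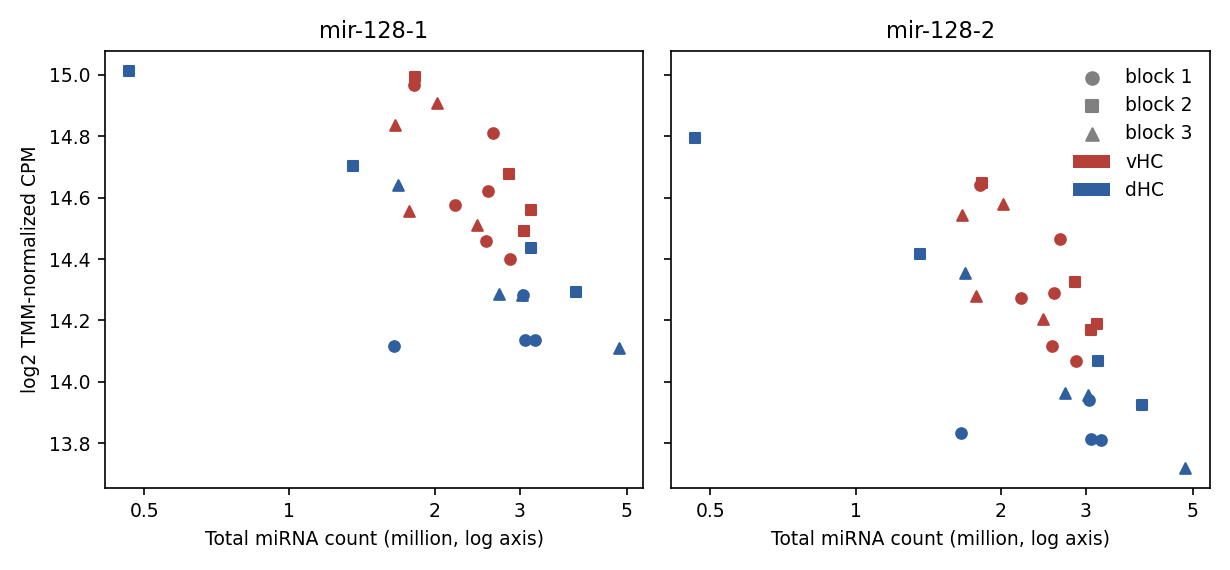
Log2 TMM-normalized CPM of mir-128-1 and mir-128-2 against the total miRNA count of each library, on a log axis. Red is vHC, blue is dHC and shapes give the block, and the point farthest left is control dHC library 24 at 465387 counts. Levels fall from left to right in both colours, and at like depth most dHC points lie below the vHC points.

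A test of depth across all entries was added after these values were seen. With region, stress, their interaction and block in the model, each doubling of the total went with a log2 change of -0.26 (SE 0.05) in mir-128-1 and -0.31 (SE 0.05) in mir-128-2, with adjusted p of 0.000485 and 3.59e-05 in edgeR. Of 463 entries 34 were called (7.34%), 26 lower (5.62%) and 8 higher (1.73%) at greater depth. Among the 50 most abundant entries, which include mir-128, 23 were lower and 0 higher, with a median of -0.15. Among the other 413 entries 3 were lower and 8 higher, with a median of 0.06. The 2 mir-128 entries are among the 23. Entries of the same miRNA, such as mir-26a-1 and mir-26a-2, are counted apart here and are not independent. With the entries of each miRNA summed, 19 of 401 were called, 13 lower and 6 higher at greater depth. The summed mir-128 had a value of -0.28 (SE 0.05), with an adjusted p of 0.000927 in edgeR.

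Neither miR-27 entry was called for depth (-0.06 for mir-27b, -0.10 for mir-27a). Without library 24 the values for mir-128 were -0.36 and -0.41, with adjusted p of 0.0170 and 0.00588 in edgeR. With no TMM scaling the value for mir-128-1 was -0.08, with an adjusted p of 0.142 in edgeR, and that for mir-128-2 was -0.13, with an adjusted p of 0.0191 and still called, while the median of all entries moved to 0.23. The size of the depth difference, and for mir-128-1 its call, are thus relative to the scaling.

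**Figure D4:**
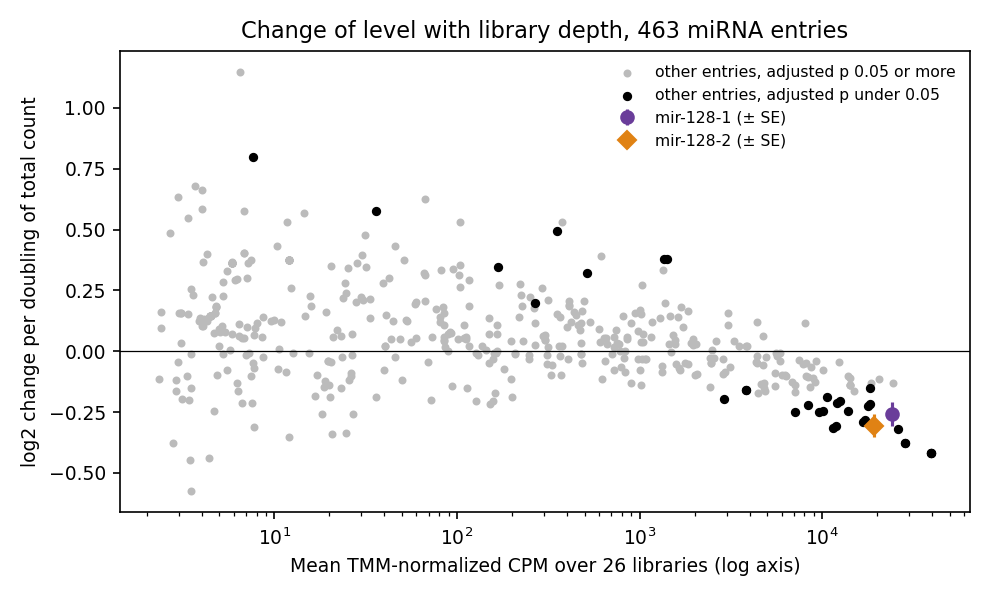
Log2 change of level per doubling of the total miRNA count against mean level (log axis), for 463 miRNA entries. Black points had an adjusted p under 0.05 in edgeR, and mir-128-1 and mir-128-2 are coloured, with bars for the SE. Both lie in the group of abundant entries with negative values, at -0.26 and -0.31.

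The mir-128-1 count was not a whole number in 17 of 26 libraries, while the difference of the entries and their sum were whole in 26 of 26, within 1e-06. These are the values that an even split of each read matching both hairpins would give. How Sports, the program that made the counts, divided such a read is not given in the sources used here, so the level of either copy alone is uncertain. With an even split, the difference of the entries comes only from reads that match 1 hairpin. The ratio of the entries, here or in other miRNAs, is then not a measure of the output of each copy.

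mir-128-1 was above mir-128-2 in 26 of 26 libraries. The mean log2 ratio was 0.324 ± 0.0356 (SD, n = 26), from 0.220 in control dHC library 24 to 0.390 in swim dHC library 28. The difference of the entries was between 7.63% and 13.4% of their sum. Of 29 miRNAs with 2 tested copies, mir-128 had the third largest mean ratio in size. For those closest to it in count the mean ratio was -0.05 (mir-125b), 0.03 (let-7a) and -0.0018 (mir-26a).

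The ratio of the entries showed no detectable difference with stress or region beyond the spread between libraries. It was compared without depth or block as covariates, and that spread includes its rise with depth, given below. In vHC it was 0.328 ± 0.0169 (SD, n = 8) in control mice and 0.326 ± 0.0348 (SD, n = 6) after swim (exact permutation test, two-sided, p = 0.864). In control dHC it was 0.309 ± 0.04999 (SD, n = 6) and in swim dHC 0.332 ± 0.0429 (SD, n = 6; exact permutation p = 0.422). For the region difference the exact permutation p was 0.350 in control mice and 0.773 after swim, and over the 4 tests the adjusted p was between 0.844 and 0.864. In control mice the design could have reached an exact permutation p of 0.000333 for the region difference. After swim, with 6 libraries on each side, a split and its mirror image give the same difference, so the lowest reachable p is higher.

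The ratio rose with depth. Its Pearson r with log10 total was 0.873 (permutation p = 1e-05, the lowest value that the resampling allows) and rho was 0.746 (permutation p = 3e-05). Without the 2 libraries farthest from the median depth r was 0.777. Within vHC r was 0.621, within dHC 0.949, and in blocks 1, 2 and 3 it was 0.674, 0.941 and 0.911. In block 1 rho was 0.394 (n = 10, permutation p = 0.262), so the ranks alone did not show the relation there. This measure needs no scaling of the libraries, and it was chosen after seeing the data.

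**Figure D5:**
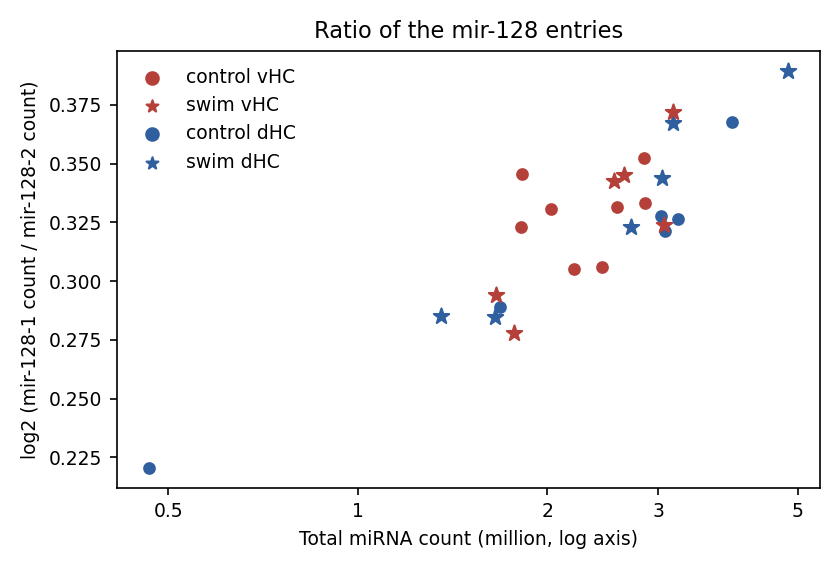
Log2 ratio of the mir-128-1 count to the mir-128-2 count in each library against the total miRNA count, on a log axis. Circles are control and stars swim libraries, red is vHC and blue is dHC. All 26 points lie above 0, and the ratio rises from 0.220 in the shallowest library to 0.390 in the deepest.

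The entries whose levels varied most like mir-128 over the 26 libraries were let-7f-2 (r = 0.906), let-7f-1 (0.904), let-7g (0.884), mir-434 (0.843) and mir-221 (0.808). The median r over all other entries was -0.124. After region, stress, their interaction and block were taken out, the most alike were let-7g (0.963), let-7f-1 (0.929), let-7f-2 (0.929), mir-26a-2 (0.887) and mir-26a-1 (0.887), with a median of -0.186. let-7g and let-7f belong to the let-7 family, which is known for its rise with differentiation. These values share the library total, depth and preparation, and are a description.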

How the data were processed

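Small RNA was measured in 26 libraries. The authors trimmed adapters with cutadapt (version not given in the sources used here). They kept 1 read of each pair of sequence and molecular tag, so that a count is of distinct pairs. The genome build is GRCm38 per the labels' processing notes, and the authors quantified with Sports. They deposited expected counts, without normalization, and 29.5% of values were not whole. Groups and the 3 blocks came from the labels. The members and lists were chosen with earlier results of these data known.

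Expected counts were rounded and tested in R 4.3.3 with edgeR 4.0.16 (TMM, filterByExpr with minimum count 10 and total 15, quasi-likelihood, Benjamini-Hochberg, threshold 0.05), limma 3.58.1, sva 3.50.0 and DESeq2 1.42.0. Stress fits held 2 surrogate variables, and region fits block in their place. Permutation tests, correlations and figures used Python 3.11.15 and scipy 1.17.1, with 100000 resamples where not exact and a pseudocount of 0.5 for ratios. The procedure was run on simulated data with larger differences than those reported for mir-128 and with no block effect. That run cannot show whether differences of the reported size would be detected. Named besides mir-128 were miR-27, the 5 most alike entries by level and by residual, neighbours in abundance, the 3 closest of the 2-copy miRNAs, and called entries of the neuronal list. Alternatives changed scaling, filter, tool, covariates, library size and libraries used. The depth test, the depth-limited fits, the fit by adjacent library numbers and the correlation of the ratio with depth were added after seeing the data. Total miRNA counts were between 465387 and 4819724, and at that depth the spread between libraries limits precision.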

Additional observations from a re-analysis of the deposited data

How the results depend on the processing

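Library numbers are unique, so the labels give no pairing by replicate. Each of 12 dHC libraries follows, by number, a vHC library of the same condition and block, and these 12 adjacent numbers were tried as a replicate block in a fit added after seeing the data. The deviations of adjacent libraries from their group means correlated at between -0.0212 and 0.727, above 0.1 in 11 of 12. After block was taken out the correlations were between -0.19 and 0.269, above 0.1 in 6. Except for control vHC in block 1 (4 libraries), each group holds 2 libraries in a block. Their deviations then mirror each other and most of the values repeat, so these values cannot decide whether adjacent libraries are paired. As the labels give no pairing, the libraries were not treated as paired. With the replicate block the region differences (mir-128-1, then mir-128-2) were -0.25 and -0.23 in control mice, with adjusted p of 0.208 and 0.286 in edgeR, and -0.29 and -0.30 after swim, with adjusted p of 0.152 and 0.167, so it changed no call of mir-128, and entries called were 108 and 122. Best correlated with its own neighbour, among dHC libraries of its condition, were 6 of the 12 vHC libraries. Of 1092 recomputed values, 1024 kept their direction and side of the threshold or stayed near the reported value. For the group differences of the entry ratio, a turned sign was not counted as a change. With each library left out, the ratio difference was between -0.0117 and 0.00704 for stress in vHC, and between -0.00516 and 0.0158 for region after swim. The values outside the 1024 follow, and the cause was not tested. The stress difference in vHC (mir-128-1, then mir-128-2) was 0.0126 and 0.0202 with TMMwsp, 0.0175 and 0.0261 with upper quartile scaling and 0.0114 and 0.0188 with library sizes over the whole table. The interaction of mir-128-1 was 0.0109 with library size only, 0.00436 when block replaced the surrogate variables and 0.00449 with the total added. The region differences with library size only were -0.32 and -0.30 in control mice and -0.26 and -0.27 after swim, all called. With the total as a covariate they were -0.34 and -0.33, and -0.27 and -0.28, all called. Without the filter the control difference of mir-128-1 was -0.33, also called. With surrogate variables in place of block the region differences were 0.68 and 0.76 in control mice and 0.64 and 0.70 after swim. The adjusted p for block was 0.0268 and 0.0326 with upper quartile scaling, and 0.0488 for mir-128-1 with library size only. Entries called for region were 67 in control mice and 56 after swim without surrogate variables or block, and 59 after swim with surrogate variables in place of block. For the region difference in control mice, the split of calls moved with the scaling: 36 higher and 68 lower with TMM, 66 and 64 with DESeq2's size factors, 63 and 64 with TMMwsp, and 103 and 51 with upper quartile scaling, where the median of all entries was 0.13. For depth, mir-128-1 was at -0.0775 with library size only, where 207 entries were called, and 19 were called without block. The depth correlation was -0.337 (mir-128-1) and -0.388 (mir-128-2) in block 1, and -0.297 for mir-128-1 with library size only. The ratio of the entries differed between the regions after swim by 0.0701 in block 3.

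With each library left out, the stress difference in vHC was between -0.0827 and 0.0265 for mir-128-1 and between -0.0787 and 0.0328 for mir-128-2, and the interaction between -0.14 and 0.0218 for mir-128-1 and between -0.17 and 0.0032 for mir-128-2. In dHC the stress difference was between -0.12 and -0.02 for mir-128-1 and between -0.15 and -0.02 for mir-128-2. The region difference in control mice was between -0.40 and -0.24 for mir-128-1 and between -0.40 and -0.21 for mir-128-2, and was called for both without control dHC library 24 and not without any other. The adjusted p for block of mir-128-1 was between 0.0405 and 0.216. Entries called for depth were between 21 (without swim dHC library 28) and 53 (without swim dHC library 6).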
